A study of Rattus norvegicus with 2 samples.

Results

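Cholesterol synthesis begins in the cytosol with acetyl-CoA, runs through mevalonate and isoprenyl diphosphates to squalene, and ends with the closing and trimming of the sterol rings. Its enzymes are encoded by genes under the control of SREBPs (sterol regulatory element binding proteins), membrane-bound transcription factors. When sterols are scarce, the escort protein SCAP carries the SREBP precursors to the Golgi, where proteases cut them free, and when sterols are plentiful, INSIG proteins hold the complex in the endoplasmic reticulum. A set of 29 genes of this system was examined, made up of 18 enzymes of synthesis, 7 SREBP control genes and 4 genes of sterol transport and esterification. The genes were chosen by name from the pathway, after earlier results from the same 2 arrays had shown many of them lower in the Ndrg-1 clone, so their ratios are given as a description and no test is made on them.

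The arrays were hybridised with RNA of AT6.1, an established rat prostate cancer cell line. The Ndrg-1 array came from clone 7, transfected with the pcDNA3 vector with an insert named N-myc downstream regulated gene-1 (symbol Ndrg1). The vector array came from clone 9, which received pcDNA3 without an insert. Both clones were kept in RPMI medium that held 10% fetal calf serum, with G418 at 0.3 mg/mL as the selecting agent. Each group was 1 clone and 1 array with no replicate, so clone, culture, array and insert cannot be told apart, and no p-value was computed.

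Values are probe set signals on a linear scale, with the vector array rescaled by a small factor so that the median ratio of the brighter probe sets was even. Signals under a floor of 31, the median of all signals, were set to the floor before ratios were taken, and a gene counts as measured when its brightest probe set exceeded the floor in at least 1 array. A log2 ratio below 0 means a lower signal in the Ndrg-1 array. Of 14217 genes with a value, 9182 were measured. Of the 29 pathway genes, 27 had a probe set annotated to that gene alone and 26 of these were measured. Tm7sf2, a sterol reductase, was under the floor in both arrays at 13.8 (Ndrg-1) and 8.09 (vector). Hmgcs1, which makes HMG-CoA, and Npc1, a lysosomal cholesterol transporter, were not analysed here.

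Ndrg1 itself was read by 2 probe sets, at 1353 (Ndrg-1 clone) against 1066 (vector clone), a log2 ratio of 0.34, and at 154 against 182, a log2 ratio of -0.24. Neither reached 2-fold, so these probe sets did not set the array labelled Ndrg-1 apart. Whether they read the inserted sequence is not known, since their target sequences were not at hand. The direction of every ratio rests on the labels of the arrays, and the clones are called here as labelled. Log2 ratios of probe sets of the same gene disagreed with an SD of 0.23 (5336 probe sets, 2296 genes), and 2 SD were 0.46. This SD is the only error in the table and leaves out variation between clones, cultures and arrays. Ratios of signal between the 3' and 5' control probe sets were 1.21 (Ndrg-1) and 1.24 (vector) for beta-actin, and 1.05 and 1.03 for Gapdh. Of 12 prostate epithelial markers with a probe set, 11 were under the floor in both arrays, among them Cdh1, Epcam, Krt5, Krt18 and Pbsn, and Krt8 was near it at 38.7 and 46.4. Of 9 mesenchymal markers, 8 were measured, 5 below 0 (49.6% of all measured genes) and 3 above. Vim was at 4344 and 5818, while Zeb2 was higher in the Ndrg-1 array at 229 and 147 and Col1a1 at 167 and 77.1, 2.16-fold. The part of these markers in the ratios below was not tested. Of 8 liver and adrenal markers, 5 were under the floor in both arrays, Alb, Cyp7a1 and Cyp11a1 included, and Fdx1 was at 796 and 622. Star was at 56.9 (Ndrg-1) and 30.3 (vector, under the floor), at least 1.83-fold higher. Ttr was near the floor at 30.3 and 35.3. Of 8 macrophage and leukocyte markers, 5 were under the floor in both arrays, Ptprc included, while Cd68 was at 206 and 114 and Cd14 at 210 and 309.

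All 16 measured enzymes of synthesis in the set had lower signals in the Ndrg-1 clone. Lbr, a protein with sterol reductase activity kept in another list, was higher (log2 ratio 0.33). Of the 26 measured members, 23 had a log2 ratio below 0, where 49.6% of all measured genes did, and the median was -0.41 against 0.0029 over all measured genes. Insig1 alone was at least 2-fold lower, where 1.50% of all measured genes were, and 0 members were at least 2-fold higher (1.62% of all measured genes). At a threshold of 1.5-fold, taken up after the values were seen, 10 members were lower (5.18% of all measured genes) and 0 higher (5.54%). Ratios more than 2 SD below 0 were found for 12 members (8.34% of all measured genes) and more than 2 SD above 0 for 0 (8.55%), and 21 members lay among the lowest 20% of measured genes. Scaled to the hybridisation spikes, control transcripts added to the sample before hybridisation, which raised the median of all genes to 0.53, 11 members were below 0 and their median turned to 0.14, while 23 were below the median of all genes. The signs given for single genes are thus relative to the rescaled arrays. Signal from bulk RNA cannot tell fewer cells with a transcript from less transcript per cell.

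**Figure D1:**
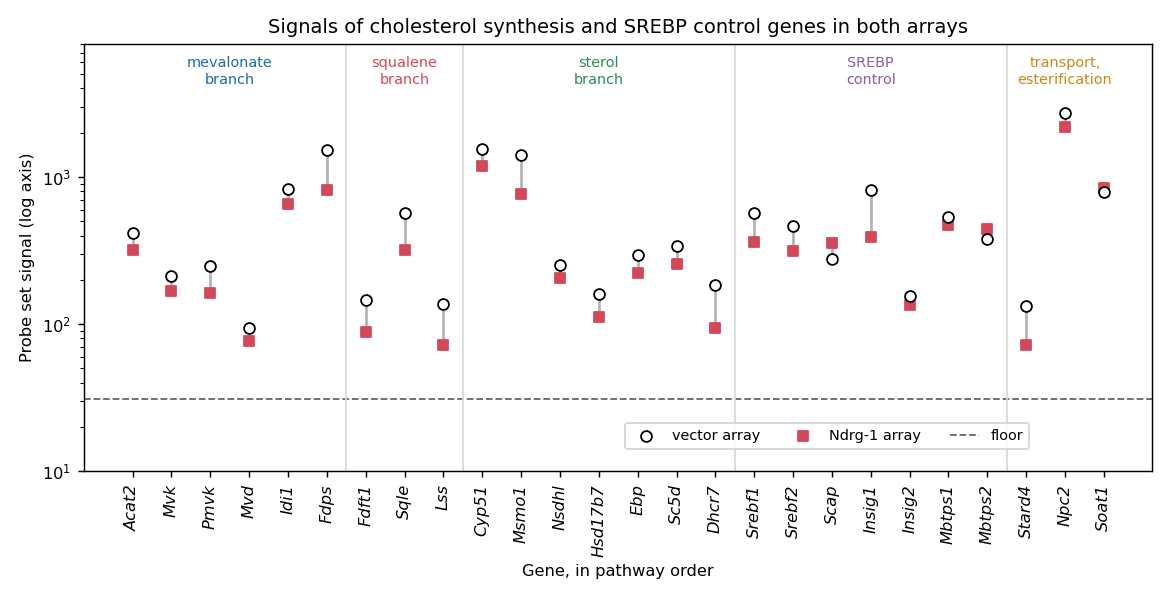
Probe set signal (log axis) of the 26 measured genes in the vector array (open circles) and the Ndrg-1 array (squares), in pathway order, with the floor of 31 as a dashed line. The square lies under the circle for every gene except Scap, Mbtps2 and Soat1.

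RefSeq promoter windows (assembly GRCr8, 250 bases before to 50 after the annotated gene start) were found for 25 of the 29 genes. The upstream 250 bases of 6 genes are printed. Insig1, Fdps, Lss, Msmo1 and Dhcr7 had the lowest ratios among members with an entry, and Srebf1 encodes an SREBP. The Srebf1 window was chosen from 2 because it carries a sterol element. They show how far the genes share letters that SREBPs and their partner factors are known to bind. Capitals mark CCAAT (the NF-Y box), GGGCGG (the Sp1 box), CACGTG (the E-box), the short sterol element CACNCCAC and TCACNCGAG, a sterol element known from the Fdps and Srebf1 promoters, each on either strand, and overlapping matches run together. Insig1 lies at chr4:8057770-8058019 (minus strand), Fdps at chr2:176804817-176805066 (minus strand), Lss at chr20:12118231-12118480 (minus strand), Msmo1 at chr16:29746863-29747112 (plus strand), Dhcr7 at chr1:208444184-208444433 (plus strand) and the downstream of 2 Srebf1 windows at chr10:45519011-45519260 (minus strand).
Insig1: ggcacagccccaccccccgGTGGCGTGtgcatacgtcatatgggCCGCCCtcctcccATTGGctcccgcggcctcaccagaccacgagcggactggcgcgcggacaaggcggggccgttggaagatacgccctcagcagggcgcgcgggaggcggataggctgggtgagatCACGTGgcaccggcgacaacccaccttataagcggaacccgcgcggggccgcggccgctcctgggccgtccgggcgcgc
Fdps: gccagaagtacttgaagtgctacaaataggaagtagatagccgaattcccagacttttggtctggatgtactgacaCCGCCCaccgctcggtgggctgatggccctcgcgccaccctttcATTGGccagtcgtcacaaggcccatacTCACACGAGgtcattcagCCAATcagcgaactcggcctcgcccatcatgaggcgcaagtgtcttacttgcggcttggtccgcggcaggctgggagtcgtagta
Lss: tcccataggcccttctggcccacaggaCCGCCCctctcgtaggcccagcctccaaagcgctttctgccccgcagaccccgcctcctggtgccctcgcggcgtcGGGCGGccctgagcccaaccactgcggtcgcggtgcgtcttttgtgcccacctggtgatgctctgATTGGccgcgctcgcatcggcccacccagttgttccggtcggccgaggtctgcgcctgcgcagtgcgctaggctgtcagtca
Msmo1: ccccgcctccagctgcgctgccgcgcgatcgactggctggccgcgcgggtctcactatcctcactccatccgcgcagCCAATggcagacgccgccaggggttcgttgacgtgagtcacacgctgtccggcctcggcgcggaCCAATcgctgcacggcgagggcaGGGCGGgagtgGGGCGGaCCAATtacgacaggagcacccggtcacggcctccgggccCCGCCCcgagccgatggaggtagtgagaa
Dhcr7: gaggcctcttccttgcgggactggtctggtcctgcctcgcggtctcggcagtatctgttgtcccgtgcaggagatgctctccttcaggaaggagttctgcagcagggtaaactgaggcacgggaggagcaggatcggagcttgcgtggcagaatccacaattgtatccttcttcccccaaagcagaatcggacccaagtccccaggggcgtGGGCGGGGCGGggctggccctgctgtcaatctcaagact
Srebf1: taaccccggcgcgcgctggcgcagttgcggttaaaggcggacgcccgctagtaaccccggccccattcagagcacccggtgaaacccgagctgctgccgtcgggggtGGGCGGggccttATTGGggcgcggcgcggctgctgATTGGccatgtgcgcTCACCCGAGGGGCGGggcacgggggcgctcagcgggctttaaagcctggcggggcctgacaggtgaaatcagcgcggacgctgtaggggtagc

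In the printed stretch of Fdps, TCACNCGAG starts 103 bases before the gene start and stands between a reversed CCAAT box, 22 bases upstream of it, and a forward CCAAT box, 9 bases downstream. In that of Srebf1 it starts 93 bases before the gene start, with a reversed CCAAT box 10 bases upstream and a GGGCGG box directly after it, at 0 bases. Fdps and Srebf1 were the only 2 of the 25 members with this element (8%), which 0.685% of 7732 measured genes and 0.521% of all 18999 genes held. Since it is known from these very promoters, and the Srebf1 window was chosen because it held the element, its presence there is no independent observation. Msmo1 held 3 CCAAT boxes and 3 GGGCGG boxes in its printed stretch, whereas Dhcr7 held 2 overlapping GGGCGG boxes and 0 CCAAT boxes. Insig1 held 1 CCAAT box, 1 GGGCGG box, 1 CACGTG and 1 CACNCCAC. Over the whole windows, CCAAT was present in 18 of the 25 members (72.0%), in 40.2% of measured genes and in 39.8% of all genes. GGGCGG was present in 21 members (84.0%), in 65.9% of measured genes and in 44.1% of all genes. CACGTG occurred in 3 members, Insig1, Sc5d and Scap (12%), in 10.6% of measured genes and in 7.69% of all genes. The longer sterol element TCACNCCAC was in 0 of the 25 members, in 1.25% of measured genes and in 1.14% of all genes, and the shorter CACNCCAC, which every match of the longer contains, was in 3 members, Acat2, Ebp and Insig1 (12%), in 6.25% of measured genes and in 6.05% of all genes. A match describes letters in the window and is not a measured binding site. Scap and Soat1, whose brightest probe sets did not have lower signals, also carried GGGCGG, and Soat1 carried CCAAT.

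All 6 measured genes of the mevalonate branch had lower signals in the Ndrg-1 clone, and Pmvk and Fdps were past 1.5-fold. Acat2, the thiolase that joins a pair of acetyl-CoA molecules, was read at 319 in the Ndrg-1 clone and 417 in the vector clone (log2 ratio -0.39). Mvk, the kinase that phosphorylates mevalonate, gave 169 and 211 (-0.32), and its further probe set above the floor gave 151 and 193 (-0.35). Pmvk, which adds the next phosphate, was at 164 and 247 (-0.59). These kinase steps differed by 1.25-fold and 1.51-fold.

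Mvd, the decarboxylase that releases isopentenyl diphosphate, was at 77.3 and 94.7 (-0.29). Idi1, the isomerase of that product, was at 652 and 829 (-0.35), and its further probe set, at 114 and 146, gave -0.36. Fdps, which condenses the isoprenyl units to farnesyl diphosphate, stood apart with 821 against 1529 (NCBI gene ID 83791, log2 ratio -0.90, 1.86-fold lower). It was the lowest of the 6 measured genes of the branch, whose median was -0.37, and 2.01% of all measured genes had a lower ratio than Fdps.

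All 3 genes that lead from farnesyl diphosphate to lanosterol were lower by more than 1.5-fold. Fdft1, squalene synthase and the enzyme that commits the pathway to sterols, was at 87.9 in the Ndrg-1 clone and 147 in the vector clone (-0.74), and a further probe set at 70.4 and 102 gave -0.53. Sqle, the epoxidase that uses oxygen on squalene, was at 320 and 565 (-0.82). Lss, the cyclase that closes the rings to lanosterol, was at 72.2 and 138 (-0.93, 1.91-fold lower). This was the branch with the lowest median, -0.82.

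The further probe set of Lss, an _a_at set, lay at 3.15 (Ndrg-1 clone) and 34 (vector clone), so that its log2 ratio is -0.13 or lower. The median over both Lss probe sets was therefore -0.53 or lower. Lss also had neighbours with low ratios. Among the 20 measured genes nearest to it on chromosome 20, 17 were below 0 with a median of -0.29, the lowest neighbour median of the 26 members. The neighbour medians of the other members ran up to 0.17 (Idi1), and their part in the Lss ratio was not tested. For Fdft1 and Sqle the neighbours had medians of 0.02 and 0.09.

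The sterol branch had 7 measured genes, each with a lower signal in the Ndrg-1 clone and with a median of -0.41. Dhcr7, the reductase that makes cholesterol from its last precursor in the branch that passes through dehydrocholesterol, was at 93.5 against 183 (NCBI gene ID 64191, -0.97, 1.96-fold lower). Msmo1, the methylsterol oxidase, was at 764 and 1399 (-0.87, 1.83-fold lower). These were the 2 genes of the branch past 1.5-fold. Of all measured genes, 1.63% had a lower ratio than Dhcr7.

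The other genes of the branch had ratios nearer 0. Cyp51, the P450 that demethylates lanosterol, was at 1182 and 1558 (-0.40), and its further probe set, at 469 and 604, gave -0.37. Nsdhl, the dehydrogenase that acts after the methylsterol oxidase, was at 207 and 254 (-0.29), while its dimmer probe set at 55.5 and 56.0 gave -0.01. Hsd17b7, the ketosteroid reductase that completes each demethylation round, was at 111 and 160 (-0.52), and its further probe set gave -0.41.

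Ebp, the isomerase that moves the ring double bond, was at 223 and 296 (-0.41). Sc5d, the desaturase before the Dhcr7 step, was at 256 and 340 (-0.41), with further probe sets at -0.19 and -0.36. Every measured enzyme listed in the 3 branches was thus lower, 16 of 16, with ratios from -0.97 to -0.29 and a median of -0.46. Those within 2 SD of 0 (Acat2, Mvk, Mvd, Idi1, Cyp51, Nsdhl, Ebp and Sc5d) were 1.22-fold to 1.33-fold lower.

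**Figure D2:**
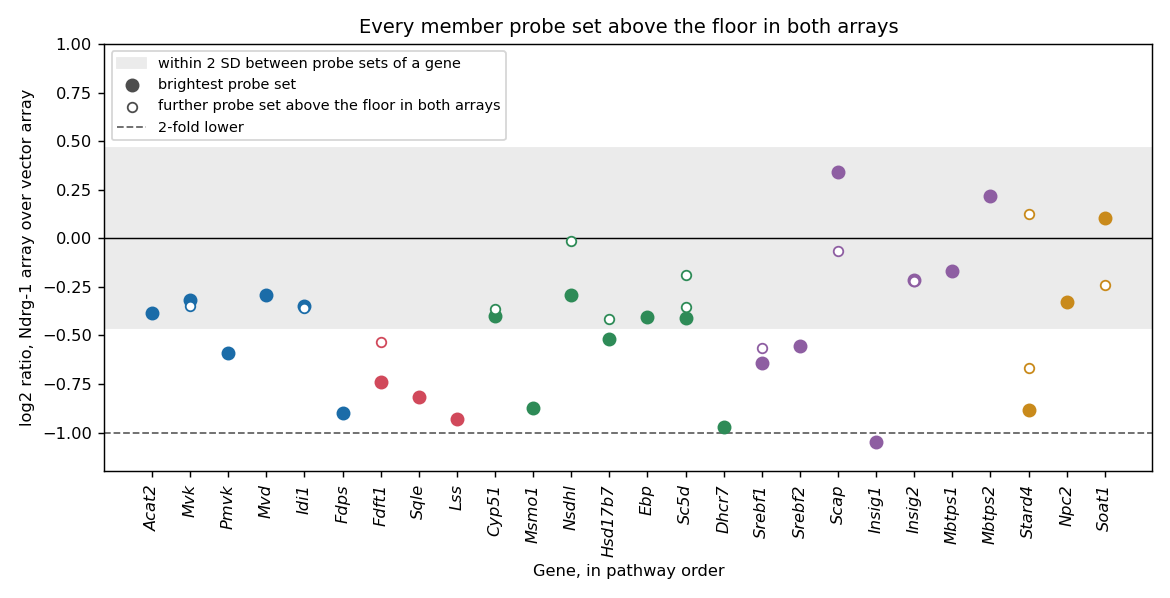
Log2 ratio (Ndrg-1 array over vector array) of each member probe set that exceeded the floor on both arrays, by gene in pathway order. Filled points are the brightest probe set of a gene, open points are further probe sets, the grey band spans 2 SD (0.46) on either side of 0 and the dashed line marks 2-fold lower. Insig1 is the 1 point past that line.

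Among the 7 genes that regulate the pathway, Insig1, Srebf1 and Srebf2 were more than 2 SD below 0. The others were within 2 SD of 0, Insig2 and Mbtps1 below it and Scap and Mbtps2 above it. Insig1, the retention protein whose own transcript is known to be induced by SREBPs, had the lowest ratio of all members, at 391 in the Ndrg-1 clone against 810 in the vector clone (NCBI gene ID 64194, -1.05, 2.07-fold lower). Of all measured genes, 1.33% had a lower ratio than Insig1. Its paralogue Insig2, the isoform whose transcript is known to respond little to SREBPs, was at 135 and 156 (-0.21), and a further probe set gave -0.22. The Insig1 ratio rests on 1 probe set, and both Insig2 probe sets were within 2 SD of 0.

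Srebf1, which encodes the SREBP-1 isoforms, was at 363 and 567 (-0.64), and its further probe set at 132 and 195 gave -0.57. The array did not separate the SREBP-1a and SREBP-1c transcripts in the annotation used. Srebf2, which encodes SREBP-2, the main activator of the cholesterol genes, was at 315 and 463 (-0.55), and its further probe set was under the floor in both arrays. Both transcription factor genes were more than 2 SD below 0.

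Scap, the sterol-sensing escort, was higher in the Ndrg-1 clone at 354 against 279 (0.34), while its dimmer probe set at 36.1 and 37.9 gave -0.07. Mbtps1, the site-1 protease that makes the initial cut in the Golgi, was at 474 and 532 (-0.17). Mbtps2, the site-2 protease that releases the active factor, was at 441 and 380 (0.22). None of the 3 was beyond 2 SD of 0. Both Scap and Mbtps2 were above the median of all genes in the main setting and under all 10 alternatives tried. The genes nearest to Scap on chromosome 8 had a median of 0.04, with 11 of 20 above 0.

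Sterol handling genes showed no common size. Stard4, a soluble sterol carrier whose transcript is known to be induced by SREBP-2, was at 71.8 in the Ndrg-1 clone and 133 in the vector clone (-0.89, 1.85-fold lower). Its second probe set at 65.9 and 105 gave -0.67, and the dimmest, near the floor at 37.0 and 33.9, gave 0.13. Npc2, the soluble lysosomal protein that hands cholesterol on to the membrane, was at 2170 and 2721 (-0.33). Soat1, the acyltransferase that makes cholesteryl esters for storage, was at 846 and 789 (0.10), and its further probe set gave -0.24. The probe sets of Soat1 thus disagreed in sign, and both were within 2 SD of 0.

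At high signals the ratios of all genes leaned below 0. The brightest decile of single-gene probe sets that exceeded the floor on both arrays, with mean signals from 1013, had a median log2 ratio of -0.12. Removal of the trend of ratio on signal moved Npc2 from -0.33 to -0.14 and Cyp51 from -0.40 to -0.32. Fdps and Msmo1, near the edge of that decile, were then at -0.85 and -0.84, and Insig1 was at -1.07. Members more than 2 SD below 0 had vector signals from 133 (Stard4) to 1529 (Fdps).

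**Figure D3:**
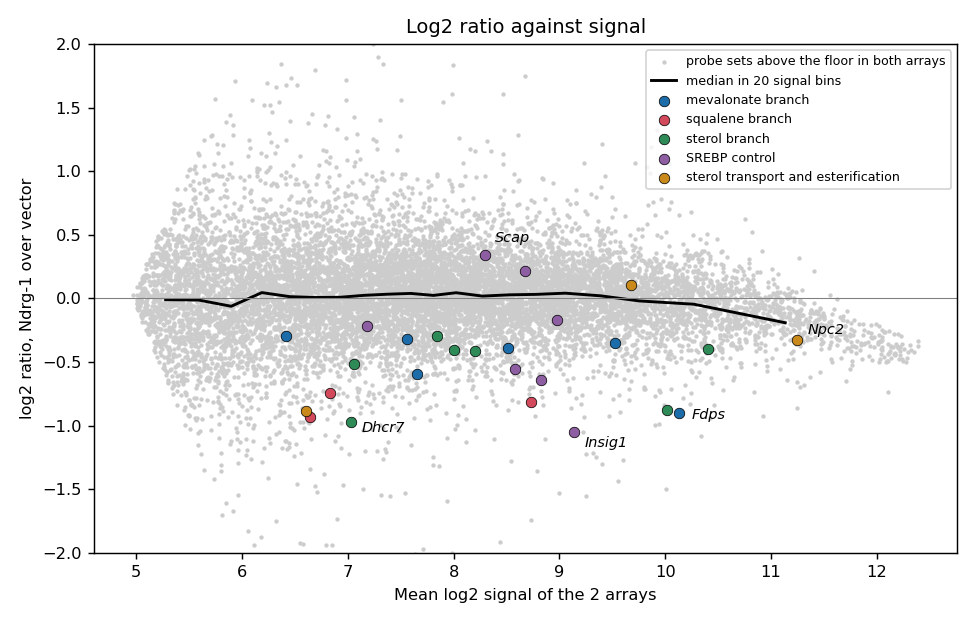
Log2 ratio (Ndrg-1 over vector) against the mean log2 signal of both arrays, for all single-gene probe sets that exceeded the floor on both arrays (grey) and for the measured members (coloured by branch), with the running median as a line. The line bends below 0 at the highest signals, where Npc2 lies, while Insig1 and Dhcr7 lie far below it at middle and low signals.

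Agreement between probe sets was available for 13 of the members. Of their 15 further probe sets above the floor, 12 had the same sign as the brightest and 3 the opposite, those of Scap, Stard4 and Soat1. The 12 include Nsdhl at -0.01 and Lss at -0.13 or lower, a value set by the floor. Over all 41 member probe sets above the floor, 37 were below 0, with a median of -0.37. Of all measured genes, 49.6% were below 0, and the share over all probe sets was not computed. Probe sets of the same gene are not separate observations. The SD between probe sets of a member was 0.24 over 26 probe sets of 12 genes, close to the 0.23 over all genes.

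Other genes that touch the pathway were examined beside it, with no test of a difference. Of all measured genes, the share to set beside each list, 49.6% were below 0, 1.50% at least 2-fold lower and 1.62% at least 2-fold higher. Genes that use isoprenyl diphosphates for products other than sterols, such as dolichol, ubiquinone and prenylated proteins, had a median of 0.20, with 8 of 10 measured genes above 0 and 0 at 2-fold. The highest was Dhdds, a subunit of the dolichol-making prenyltransferase, at 79.9 in the Ndrg-1 clone and 63.4 in the vector clone (0.33). The lowest was Icmt, the methyltransferase of prenylated proteins, at 70.7 and 114 (-0.69). Relative to the median of all genes, this list ran from 0.06 to 0.22 over all settings.

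COPII coat genes, whose products carry the SCAP complex out of the endoplasmic reticulum, had a median of -0.04 over 8 measured genes, 6 of them below 0, from Sec24d (-0.21) to Sec31a (0.45). Genes of sterol-regulated degradation in the endoplasmic reticulum had a median of 0.02 over 11, with 5 below 0. They ran from Ube2g2 (-0.33), a ubiquitin-conjugating enzyme, to Aup1 (0.58). A further Ube2g2 probe set above the floor had the opposite sign. Genes that supply electrons or otherwise help the steps after squalene had a median of -0.05 over 9, with 5 below 0. Their lowest was Cyb5r3, the cytochrome b5 reductase, at 1019 and 1442 (-0.50). Por, the P450 reductase, was at 233 and 306 (-0.39), and Tmem97 at 891 and 1110 (-0.32), both named after their values were seen. The highest was Lbr, a nuclear envelope protein with sterol reductase activity, at 460 and 367 (0.33). None of the genes measured in these 3 lists reached 2-fold.

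**Figure D4:**
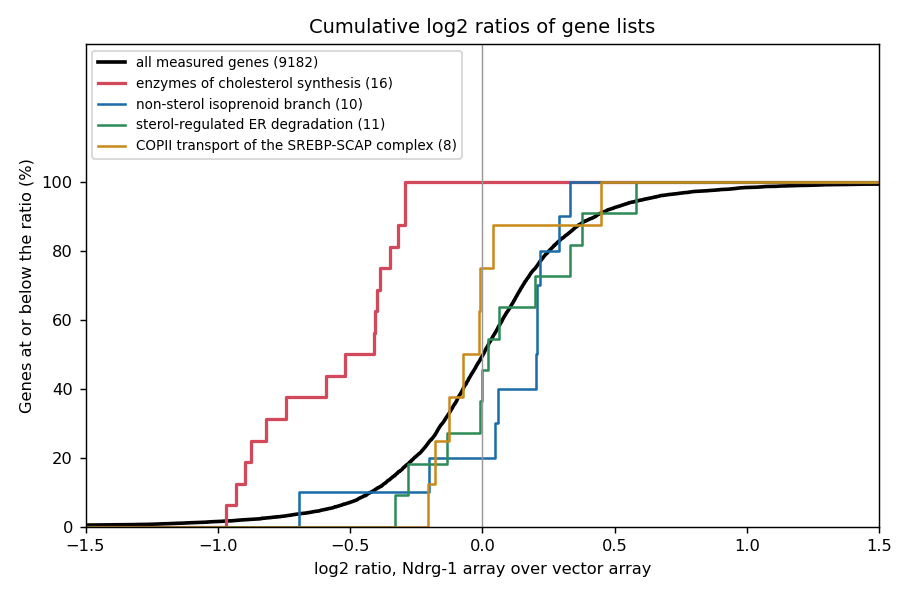
Share of genes (%) at or below each log2 ratio (Ndrg-1 array over vector array), for all 9182 measured genes (black), the 16 measured enzymes of cholesterol synthesis and 3 lists of related genes. The curve of the enzymes reaches 100% at -0.29, to the left of the others.

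Lipid genes outside the sterol pathway were unequal. Of 11 lipogenic genes that SREBP-1 is known to activate, 8 were below 0 (49.6% of all measured genes), with a median of -0.19. Of these genes, 2 were at least 2-fold lower (1.50% of all measured genes). Scd, the stearoyl-CoA desaturase, was at 19.3 and 291 (at least 9.38-fold lower), and Lpin1, a phosphatidate phosphatase, at 27.6 and 129 (at least 4.14-fold lower). Fasn (-0.14) and Acaca (0.11), which build palmitate, were close to the median gene, and Acss2, which makes acetyl-CoA from acetate, was at 143 and 274 (-0.94). Me1 was the highest of the list at 235 and 151 (0.64, 1.55-fold higher), and Elovl6 was at 80.6 and 68.7 (0.23). Fasn, Acaca and Elovl6 each had a further probe set above the floor with the opposite sign. Fasn, Acaca, Acss2, Me1 and Elovl6 were named after their values were seen. Among 11 genes of sterol efflux and transfer, 6 were below 0 and 5 above (median -0.13). The exporters Abcg1 (57 against 218, 3.84-fold lower) and Abca1 (33.3 against 69.3, 2.08-fold lower) reached 2-fold, and 0 genes were 2-fold higher. The Abca1 signal in the Ndrg-1 array was near the floor, and 2 of 4 Abca1 probe sets were above the floor. Mylip, named after its value was seen, was the highest of the list at 118 and 78.9 (0.59, 1.50-fold higher).

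The sign of a ratio depends on the scale that the arrays are put on. The 18 hybridisation spike probe sets had a median log2 ratio of -0.54 and were all below 0, whereas 23 of 24 poly-A spike probe sets were above 0 with a median of 0.21. Scaling to the first raised the median of all genes to 0.53 and scaling to the second lowered it to -0.21. The members' median minus that of all genes ran from -0.45 to -0.39 on the log2 scale under the settings tried. No rescaling and both spike scales apply 1 factor to an array. There, that difference and a member's side of the gene median could change only through the floor. In the main setting and in all 10 alternatives the members above the gene median were Scap and Mbtps2, joined by Soat1 except where the median over probe sets was used, and by Tm7sf2 where the floor was lowered or left out.

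**Figure D5:**
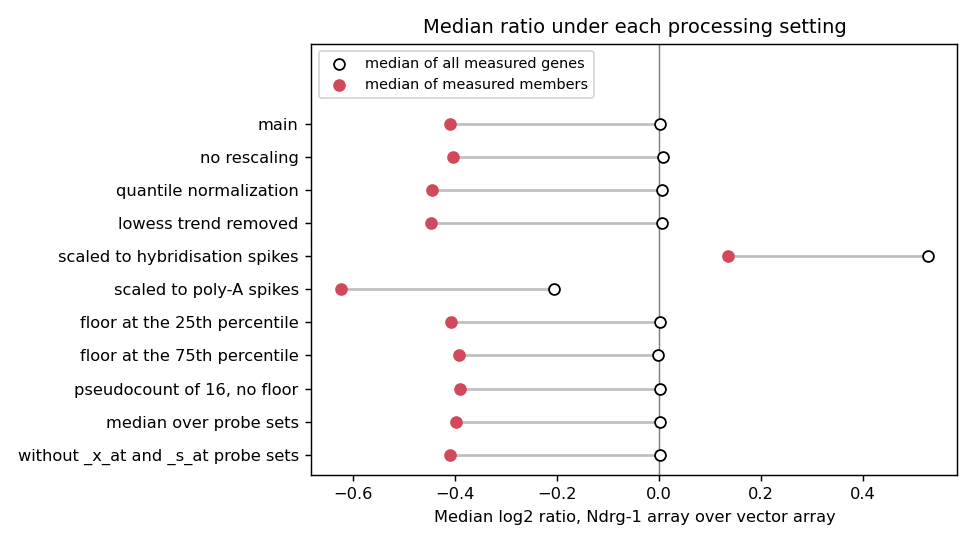
Median log2 ratio (Ndrg-1 array over vector array) of the measured members (filled) and of all measured genes (open) under the main processing and 10 alternatives. Both points shift together when the arrays are scaled to spikes, and the members' median minus that of all genes stays between -0.45 and -0.39.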

How the data were processed

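RNA from 2 clones of AT6.1 cells was measured on Affymetrix arrays, 1 array per group. The deposited values are 1 intensity per probe set and array for 31099 probe sets, and the submitters' processing notes name GCOS 1.3. How probe sets were summarised, scaled and called present is not stated in the labels. Both arrays had a mean of 150.0 once the lowest and highest 2% were set aside, so the authors' intensities were already on a common level. Control probe sets (57) were set apart, and 20826 of the other 31042 carried 1 gene symbol, updated through gene IDs of the RefSeq annotation of GRCr8.

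The vector array was rescaled by a log2 shift of 0.0048, signals were floored at the median, and each gene was represented by its brightest probe set. No detection p-values or counts were used, and the number of arrays limits the precision. The members and gene lists were chosen with earlier results of these data known. All members are named. From each other list the genes that reached 2-fold are named, or the highest and the lowest where none did. Further genes of these lists were named after their values were seen. Of the marker lists, examples and the number under the floor are given. Promoter motifs came from general knowledge, and TCACNCGAG was added after the Fdps and Srebf1 sequences were read. Some genes of the pathway are not reported here. Software was Python 3.11.15 with statsmodels 0.14.6 (lowess fraction 0.3), pandas 2.3.3, numpy 2.4.6 and matplotlib 3.10.9.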

Additional observations from a re-analysis of the deposited data

How the results depend on the processing

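No paired analysis was possible because each group had 1 array, and no array could be left out. No rescaling and both spike scales change the vector array by 1 factor, which moves all measured members alike. The poly-A spike median of 0.21 lay within 1 SD (0.23) and the hybridisation spike median of -0.54 beyond it. The counts that follow are therefore no measure of robustness. Of 254 member ratios under 10 alternatives, 226 stayed within 1 SD of the main value. Of the 28 that did not, 26 came from scaling to the hybridisation spikes. The other 2 were Dhcr7 at -0.10 with the floor at the 75th percentile (171.5), which lifts its Ndrg-1 signal to the floor, and Lss at -0.53 or lower with the median over its probe sets. Scaled to the hybridisation spikes, the members' median turned to 0.14, that of the mevalonate branch to 0.18, of the sterol branch to 0.13 and of transport and esterification to 0.22. The SREBP control median was 0.33, the squalene branch was at -0.27, all genes were at 0.53, 11 members were below 0 and 0 were 2-fold lower. Genes 2-fold higher and lower then numbered 732 and 43, against 149 and 138 in the main setting. Scaled to the poly-A spikes, 7 members (Fdps, Sqle, Lss, Msmo1, Dhcr7, Insig1 and Stard4) and 240 of 9200 measured genes were 2-fold lower. Quantile normalization gave 2 members 2-fold lower, Dhcr7 and Insig1, and 143 of 9185 measured genes. A threshold of 1.5-fold, added after seeing the data, gave 10 members in the main setting (5.18% of all measured genes). With the floor at the 25th percentile, 444 genes were higher and 463 lower, and at the 75th percentile 23 and 34, since the floor sets which dim genes count. Only 20 members were above the higher floor, 17 of them below the gene median.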
